A study of Homo sapiens with 8 samples.

Results

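The 8 genes described here encode enzymes that make deoxynucleotides, the building blocks of DNA, in the cytosol and nucleus. They were chosen by name (RRM1, RRM2, TYMS, TK1, DUT, DCK, DTYMK and DCTD) from the 25337 genes of a table of expression in NCI-H82, an established small cell lung cancer line. Tumours of this kind have often lost the retinoblastoma protein, pRB. All 8 were found, and all 8 were among the 12013 genes tested. The cells carried a pTripZ RB1 construct, which makes pRB when doxycycline is present. The question of the design is what restoring pRB and inhibiting Aurora B, a kinase of mitosis, do to gene expression, alone and together. Every culture was plated at 100000 cells per mL, and there were 2 libraries in each of 4 groups. The pRB+ AZD2811 group had 0.5 µg/mL doxycycline for 96 h and 32 nM AZD2811, the Aurora B inhibitor that the sample titles call AZD1152, for the last 48 h. The pRB+ control group had the same doxycycline with DMSO for the last 48 h. The pRB- AZD2811 group had no doxycycline and the same AZD2811, and the pRB- control group had no doxycycline and DMSO. All groups carried the construct, none of the pRB- groups had doxycycline, and so effects of doxycycline and of pRB cannot be told apart. Replicates are named biological in the series text, which gives them the names 10_18 and 10_21 without saying what these stand for, and has no word on separate cultures, so p-values measure the spread between these libraries.

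Ribonucleotide reductase, built from the large subunit RRM1 and the small subunit RRM2, turns ribonucleotides into deoxynucleotides and sets the pace of their supply in dividing cells. Thymidylate is then made from dUMP by thymidylate synthase (TYMS), or salvaged from thymidine by TK1, and DTYMK adds the next phosphate on both routes. DUT and DCTD feed dUMP to TYMS, while DCK salvages deoxycytidine and purine deoxynucleosides. In growing cells several of these genes are transcribed mainly around S phase, and E2F factors, which pRB holds in check, are known to act at promoters of this pathway. NF-Y, which binds CCAAT, and the DREAM and MuvB complexes, which bind the cell cycle homology region (CHR), act at promoters of many cell cycle genes.

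Because these genes are studied as targets of E2F and of cell cycle complexes, the 250 bases before the start of each were read from RefSeq (GRCh38.p14) and searched on both strands for the E2F words TTTCCCGC, TTTGGCGC, TTTCGCGC and TTTGCCGC, for CCAAT, and for the CHR words TTTGAA and TTTAAA. Capitals mark every match, and each sequence runs 5′ to 3′ on the strand of its gene, ending at the base before the start. The windows of both reductase subunits are shown, with those of the 3 thymidylate genes in which an E2F or a CHR word was found, taking the window with most matches where a gene has several. They lie at chr11:4094435-4094684 (plus strand) for RRM1, chr2:10122489-10122738 (plus) for RRM2, chr18:657403-657652 (plus) for TYMS, chr17:78187053-78187302 (minus) for TK1 and chr15:48331947-48332196 (plus) for DUT.
RRM1: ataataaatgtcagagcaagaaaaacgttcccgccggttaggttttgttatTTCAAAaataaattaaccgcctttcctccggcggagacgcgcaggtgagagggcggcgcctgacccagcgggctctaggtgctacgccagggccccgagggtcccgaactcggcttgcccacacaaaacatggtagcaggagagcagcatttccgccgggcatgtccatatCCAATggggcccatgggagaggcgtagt
RRM2: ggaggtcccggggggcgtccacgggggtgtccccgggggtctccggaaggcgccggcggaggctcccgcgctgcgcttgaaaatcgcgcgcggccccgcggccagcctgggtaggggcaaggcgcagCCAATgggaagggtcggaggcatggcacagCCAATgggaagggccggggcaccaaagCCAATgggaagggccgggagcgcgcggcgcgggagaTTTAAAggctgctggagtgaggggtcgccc
TYMS: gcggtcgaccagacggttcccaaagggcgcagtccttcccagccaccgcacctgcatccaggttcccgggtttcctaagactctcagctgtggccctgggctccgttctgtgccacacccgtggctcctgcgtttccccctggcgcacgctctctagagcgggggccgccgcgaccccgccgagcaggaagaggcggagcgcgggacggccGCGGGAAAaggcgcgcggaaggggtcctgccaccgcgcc
TK1: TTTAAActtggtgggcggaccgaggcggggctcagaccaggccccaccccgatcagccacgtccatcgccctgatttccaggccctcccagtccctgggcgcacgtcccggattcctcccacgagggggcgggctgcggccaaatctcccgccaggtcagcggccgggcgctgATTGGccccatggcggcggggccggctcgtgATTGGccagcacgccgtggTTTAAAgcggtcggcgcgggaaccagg
DUT: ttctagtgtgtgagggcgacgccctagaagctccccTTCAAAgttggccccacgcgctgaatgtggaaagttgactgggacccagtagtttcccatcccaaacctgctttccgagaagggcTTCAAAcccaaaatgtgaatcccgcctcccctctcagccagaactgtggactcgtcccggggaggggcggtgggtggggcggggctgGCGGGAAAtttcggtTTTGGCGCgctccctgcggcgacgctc
RRM2 held 3 copies of CCAAT, beginning 123, 93 and 66 bases before the start, and TTTAAA from 30 to 25 bases before it. TK1 held CCAAT on the other strand (read as ATTGG) from 77 and 46 bases before the start, and TTTAAA from 27 to 22 and from 250 to 245 bases before it. TTTAAA close to a start also resembles a TATA box. In RRM1 the matches were CCAAT from 28 to 24 and TTTGAA on the other strand from 199 to 194 bases before the start. The E2F word TTTCCCGC was found, on the other strand, in TYMS from 39 to 32 and in DUT from 42 to 35 bases before the start. DUT also held TTTGGCGC from 27 to 20 bases before the start and TTTGAA on the other strand in 2 places. DTYMK had CCAAT in 2 places, and DCK and DCTD had no match in this window. Some genes have several starts, and of the members' 14 windows 2 held an E2F word, 5 CCAAT and 5 a CHR word, against 2.79%, 32% and 21.9% of 35116 RefSeq promoter windows of this length. Windows of a gene can overlap, and 1 TTTAAA of TK1 was counted in 2 of them. By gene, 2 of 8 members had an E2F word, 4 had CCAAT and 4 had a CHR word in any of their windows. The shares given are per window, and no share per gene was computed, so these counts have no background beside them. Windows with 3 or more CCAAT made up 2.93% of all. A match is a description of the letters and not a measured binding site.

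Values are FPKM (fragments per kilobase of transcript scaled to the library's depth), deposited by the authors and here divided by 1 factor per library, which is called scaled FPKM. RB1 itself ranged from 6.36 to 7.67 scaled FPKM in pRB+ libraries and from 0.801 to 0.950 in pRB- libraries, so every library matched the pRB part of its label. Of the neuroendocrine markers of this tumour type, CHGA ranged from 41.8 to 71.7 and NEUROD1 from 74.8 to 111 scaled FPKM. In replicate 1 of pRB+ AZD2811, replicate 2 of pRB+ control and replicate 1 of pRB- AZD2811 (3 libraries), the RNA component RMRP, which has no poly(A) tail, reached 5792 to 14003 scaled FPKM, against 21.2 to 165 in the other 5. Within their groups these 3 libraries gave the lower value for 8, 7 and 8 of the 8 members, against 50.25%, 55.1% and 54.1% of all tested genes. Of the members 7 of 8 were lower in all 3, against 18.2% of tested genes. The changes of the members are therefore also given within each kind of library. The share of these differences in the results was not tested. Within the RMRP-rich kind, 2 pRB+ libraries are set against 1 pRB- library, which had AZD2811. Within the other 5, 2 pRB+ libraries are set against 3 pRB- libraries. Neither kind is balanced for AZD2811, and every RMRP-rich value rests on that 1 pRB- library. Since whole cultures were measured, fewer cells of a kind and less RNA per cell cannot be told apart.

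Levels of the 8 genes fell into 3 tiers whose ranges over all 8 libraries did not overlap, with TYMS and RRM2 on top, DUT, DTYMK, RRM1 and TK1 below them, and DCTD and DCK lowest. Mean levels over the 8 libraries, per length, were 87.9 scaled FPKM for TYMS, 76.9 for RRM2, 45.1 for DUT, 36.6 for DTYMK, 35.9 for RRM1, 34.4 for TK1, 14.1 for DCTD and 12.5 for DCK. The ranges of neighbours overlapped within each tier and did not overlap between RRM2 and DUT or between TK1 and DCTD. TYMS was above RRM2 in 7 of 8 libraries. The exception lay in the pRB- control group, where RRM2 averaged 96.8 and TYMS 94.6 scaled FPKM, with overlapping values. By contrast, the mitochondrial thymidine kinase TK2 averaged 0.558 and the alternative small reductase subunit RRM2B 4.44 scaled FPKM over all libraries. Not every kinase outside the members was low, since DGUOK averaged 57.5 scaled FPKM.

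**Figure D1:**
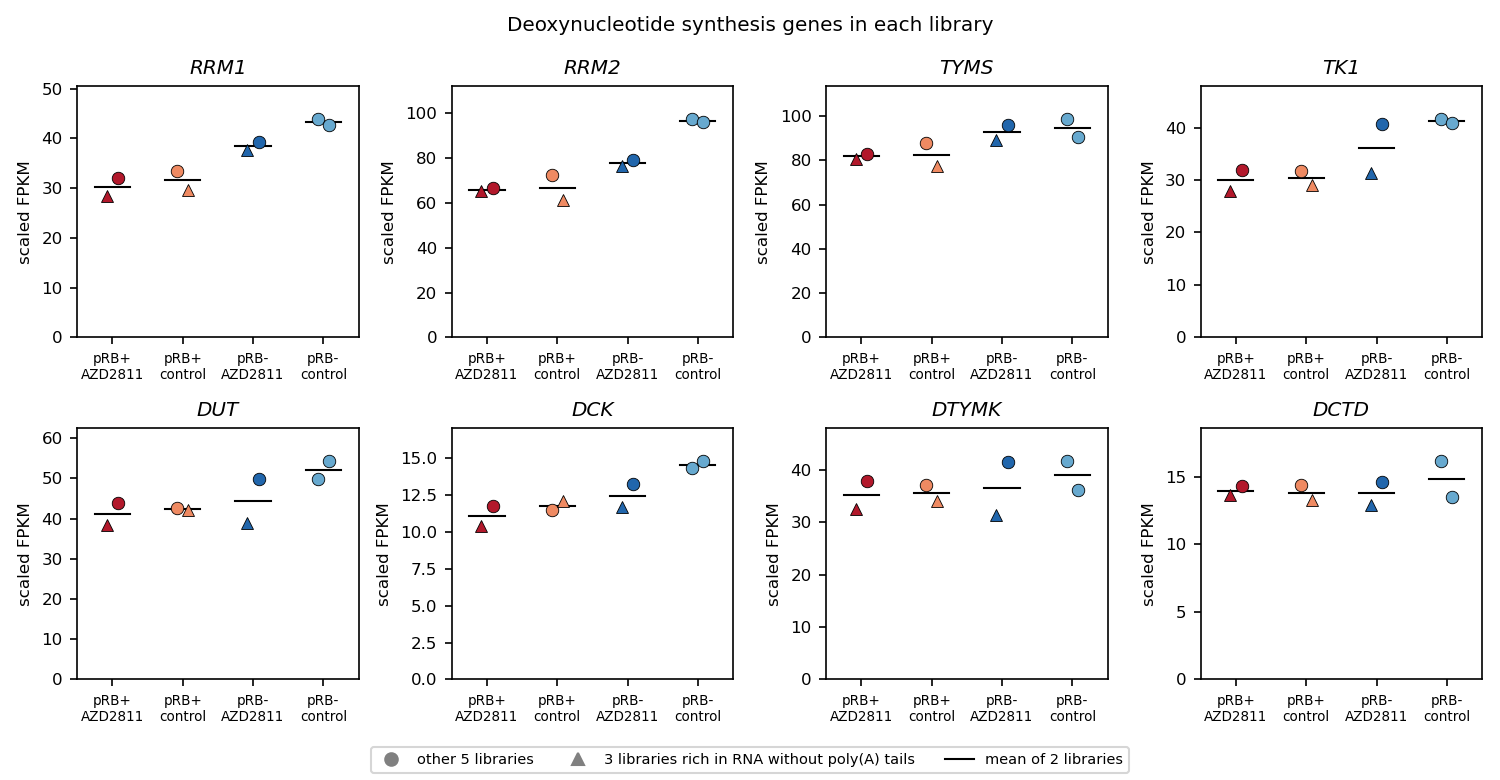
Scaled FPKM of each of the 8 deoxynucleotide synthesis genes in every library (y axis, from 0), with pRB+ AZD2811, pRB+ control, pRB- AZD2811 and pRB- control from left to right, triangles for the 3 libraries rich in RMRP, circles for the other 5 and lines for the mean of 2 libraries. RRM1, RRM2 and TYMS have every pRB+ point below every pRB- point, while TK1, DUT, DCK, DTYMK and DCTD overlap.

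With pRB, both subunits of ribonucleotide reductase fell, by 24.5% for RRM1 and by 23.9% for RRM2, and the other 6 members had lower means without passing the test. RRM1, the large subunit that holds the catalytic site, stood at 28.4 and 32.1 scaled FPKM in pRB+ AZD2811, 33.5 and 29.6 in pRB+ control, 37.7 and 39.2 in pRB- AZD2811, and 43.9 and 42.8 in pRB- control libraries. Its highest pRB+ library lay below its lowest pRB- library. Across all 8 libraries it averaged 30.9 ± 2.32 in pRB+ and 40.9 ± 2.92 in pRB- libraries (SD, n = 4 each), a log2 fold change of -0.39 ± 0.06 (SE; limma, Benjamini-Hochberg adjusted p = 0.0252). This and later log2 values are of scaled FPKM plus 1, which understates the change of low genes. RRM2, the small subunit that carries the tyrosyl radical and whose protein is known to accumulate in S phase, stood at 65.4 and 66.7 scaled FPKM in pRB+ AZD2811, 72.4 and 61.2 in pRB+ control, 76.3 and 79.2 in pRB- AZD2811, and 97.6 and 96.0 in pRB- control libraries. Here too the pRB+ and pRB- libraries did not overlap, and the pRB- control pair stood above the pRB- AZD2811 pair. The log2 fold change of RRM2 between pRB+ and pRB- was -0.38 ± 0.08 (SE; limma, Benjamini-Hochberg adjusted p = 0.0325).

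These 2 of 8 members are to be read against 5.81% of all tested genes that fell at this threshold (698 genes), and beside 5.34% that rose (642 genes). Both calls depended on which libraries were in the fit: leaving out replicate 1 of any group (pRB+ AZD2811, pRB+ control, pRB- AZD2811, pRB- control) or replicate 2 of pRB- control left only 1 or 2 called genes among all those tested, and neither subunit among them. The adjusted p of RRM1 was then 0.0900, 0.0779, 0.0574, 0.0906 and 0.0714 in that order, and that of RRM2 0.0958, 0.0968, 0.0574, 0.107 and 0.0851 (limma, Benjamini-Hochberg). RRM2 also missed the threshold without pRB- AZD2811 replicate 2 (limma, adjusted p = 0.0512). The fold changes moved little, to between -0.44 and -0.35 for RRM1 and between -0.43 and -0.30 for RRM2. Within the 3 RMRP-rich libraries, with 1 pRB- library among them, the change of RRM1 in pRB+ was -23.1% and that of RRM2 -17.1%. Within the other 5 they were -21.9% and -23.5%. In a fit of those 5 libraries alone both had an adjusted p of 0.173 (limma), and with a term for the kind of library in the fit of all 8 the adjusted p was 0.0308 for RRM1 and 0.0338 for RRM2 (limma). Taking the difference from a fit of 4 group means in place of additive terms gave an adjusted p of 0.0516 for RRM1 and 0.0517 for RRM2 (limma), with 4 called genes in all. The same fit without small RNA genes, tried after seeing the data, called 1164 genes and 3 members, with an adjusted p of 0.0215 for RRM1, 0.0233 for RRM2 and 0.0490 for TK1 (limma).

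The thymidylate and salvage enzymes had log2 fold changes from -0.34 for TK1 to -0.04 for DCTD in pRB+ cells, none past the test. TK1, the cytosolic thymidine kinase whose message and protein are classic marks of proliferating cells, stood at 27.9 and 31.9 scaled FPKM in pRB+ AZD2811, 31.7 and 29.05 in pRB+ control, 31.4 and 40.7 in pRB- AZD2811, and 41.7 and 40.8 in pRB- control libraries. A single pRB- library, AZD2811 replicate 1, lay within the pRB+ range, and the other 3 lay above it. The change was -22.0%, a log2 fold change of -0.34 ± 0.09 (SE; limma, Benjamini-Hochberg adjusted p = 0.0564). With a term for the kind of library the log2 fold change of TK1 was -0.28 and the adjusted p 0.0332 (limma), and without small RNA genes in the fit the adjusted p was 0.0318 (limma). Leaving out pRB+ AZD2811 replicate 2 also brought TK1 past the threshold, at an adjusted p of 0.0410 (limma). Within the 3 RMRP-rich libraries the change of TK1 was -9.22%, and within the other 5 it was -22.5%.

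TYMS, which methylates dUMP and is the target of fluoropyrimidine drugs, stood at 80.8 and 83.0 scaled FPKM in pRB+ AZD2811, 87.7 and 77.5 in pRB+ control, 89.1 and 96.2 in pRB- AZD2811, and 98.8 and 90.4 in pRB- control libraries. No pRB+ library reached the lowest pRB- library, yet the gap between 87.7 and 89.1 was small beside the spread within groups. The log2 fold change was -0.18 ± 0.06 (SE; limma, Benjamini-Hochberg adjusted p = 0.0826), a change of -12.1%, with -11.1% within the RMRP-rich libraries and -10.3% within the other 5. DUT, which breaks down dUTP and so keeps uracil out of DNA, stood at 38.5 and 43.9 scaled FPKM in pRB+ AZD2811, 42.7 and 42.2 in pRB+ control, 39.0 and 49.9 in pRB- AZD2811, and 50.0 and 54.4 in pRB- control libraries. One pRB- library, again AZD2811 replicate 1, lay among the pRB+ values. DUT changed by -0.19 ± 0.09 on the log2 scale (SE; limma, Benjamini-Hochberg adjusted p = 0.186), with 3.47% within the RMRP-rich libraries and -15.8% within the other 5.

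DTYMK, the thymidylate kinase, spanned 32.5 to 37.9 scaled FPKM in pRB+ and 31.5 to 41.8 in pRB- libraries, a log2 fold change of -0.08 ± 0.10 (SE; limma, adjusted p = 0.600). DCTD, which deaminates dCMP to dUMP, spanned 13.2 to 14.4 scaled FPKM in pRB+ and 12.9 to 16.2 in pRB- libraries, a log2 fold change of -0.04 ± 0.07 (SE; limma, adjusted p = 0.759). Both genes overlapped widely between pRB+ and pRB-, and without pRB- control replicate 1 the log2 fold change of DCTD was 0.02. Within the RMRP-rich libraries DTYMK changed by 5.74% and DCTD by 3.83%, and within the other 5 by -5.84% and -2.91%. DCK, the salvage kinase that also activates gemcitabine and cytarabine, stood at 10.4 and 11.8 scaled FPKM in pRB+ AZD2811, 11.5 and 12.1 in pRB+ control, 11.7 and 13.2 in pRB- AZD2811, and 14.3 and 14.8 in pRB- control libraries. The 2 pRB- control libraries lay highest, and pRB- AZD2811 replicate 1 fell inside the pRB+ range. Its log2 fold change was -0.22 ± 0.06 (SE; limma, Benjamini-Hochberg adjusted p = 0.0632). Its change was -3.86% within the RMRP-rich libraries and -17.6% within the other 5. DCK passed without pRB+ AZD2811 replicate 2, at an adjusted p of 0.0348 (limma).

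All 8 members thus had a negative log2 fold change with pRB, also with median-ratio scaling and with the FPKM as deposited. In the scaled values 52% of all tested genes were negative. Their median was -0.21, beside -0.01 over all tested genes. The pRB+ and pRB- libraries did not overlap for 3 of 8 members (RRM1, RRM2 and TYMS), each lower in pRB+, against 11.2% of all tested genes. At an unadjusted p under 0.05 the count of lower members was 5 of 8, against 16.9% of tested genes.

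**Figure D2:**
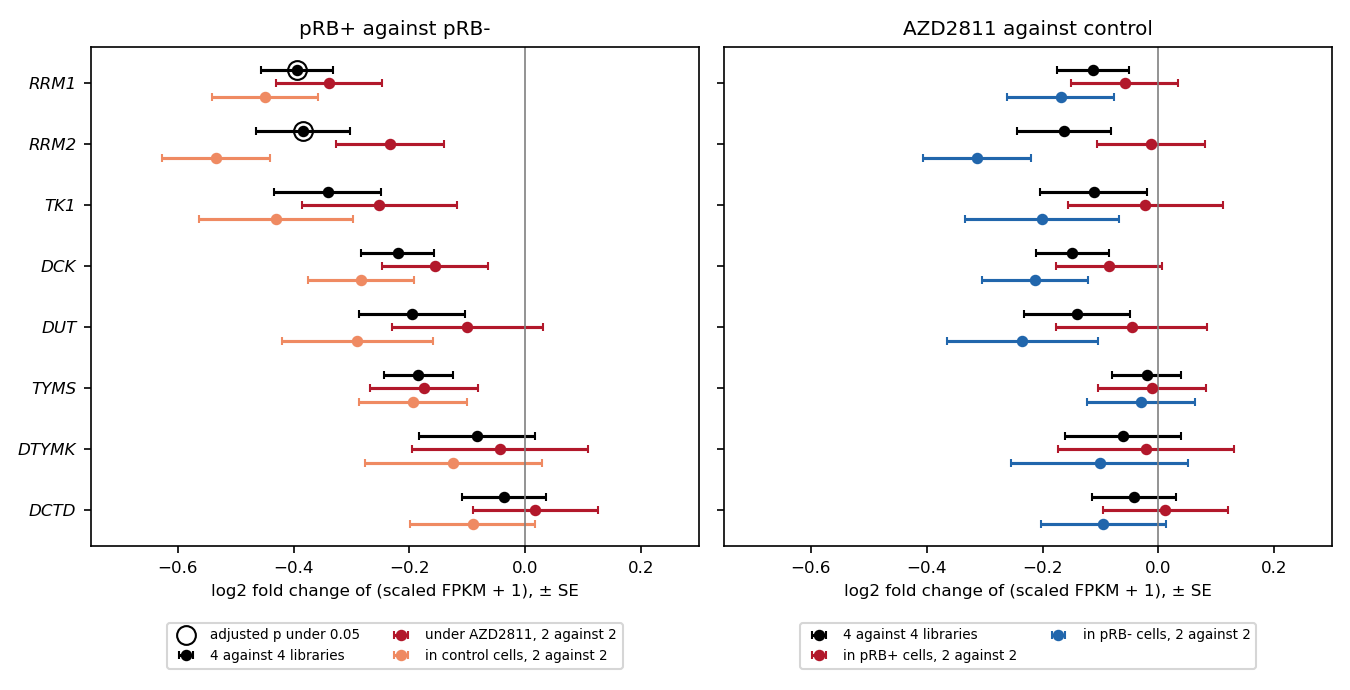
Log2 fold change of scaled FPKM plus 1 for each of the 8 genes, with SE bars, in the comparison of pRB+ with pRB- and in that of AZD2811 with control, in 4 against 4 libraries (black) and within each treatment or pRB state (2 against 2, coloured), with rings for an adjusted p under 0.05. RRM1 and RRM2 lie farthest below 0 in the comparison of 4 pRB+ with 4 pRB- libraries, at -0.39 and -0.38, and DCTD lies at -0.04.

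Taken by treatment, the differences between pRB+ and pRB- were numerically larger in control cells than under AZD2811 for all 8 members. The log2 fold change under AZD2811 minus that in control cells was thus positive for 8 of 8, against 6356 of 12013 tested genes. The test of that difference gave an adjusted p of 1.00 for each member (limma). With a term for the kind of library its sign turned for TYMS and DTYMK. In control cells, 2 against 2 libraries, RRM2 had a log2 fold change of -0.53 ± 0.09, RRM1 of -0.45 ± 0.09 and TK1 of -0.43 ± 0.13 (SE; limma, Benjamini-Hochberg adjusted p = 0.144, 0.144 and 0.182). None of the 8 members passed, against 0.0666% of tested genes (8 genes). The groups did not overlap, with pRB+ lower, for 6 of 8 members, against 31.1% of tested genes, and only DTYMK and DCTD overlapped. Under AZD2811 the log2 fold changes were -0.34 ± 0.09 for RRM1, -0.23 ± 0.09 for RRM2 and -0.25 ± 0.13 for TK1 (SE; limma, adjusted p = 0.374, 0.399 and 0.481). There 3 of 8 members did not overlap and were lower in pRB+, against 20.9% of tested genes, and 0 of 8 passed, against 0.00832%. Under AZD2811 the log2 fold change was negative for 7 of 8 members after scaling but for 1 of 8 in the FPKM as deposited, where the median of all tested genes stood at 0.26 and that of the members at 0.15.

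AZD2811 itself changed no member past the threshold. Over all libraries the log2 fold changes of AZD2811 against control ran from -0.16 ± 0.08 for RRM2 to -0.02 ± 0.06 for TYMS (SE; limma, Benjamini-Hochberg adjusted p = 0.965 and 0.983). No gene of the 12013 passed in this comparison (0% called). An unadjusted p under 0.05 was seen for 426 genes, 3.55%, and for 1 of 8 members, DCK at 0.0486 (limma). In pRB- cells RRM2 moved most, at 77.8 scaled FPKM under AZD2811 and 96.8 in control cells, a log2 fold change of -0.31 ± 0.09 (SE; limma, unadjusted p = 0.0142, adjusted p = 0.992), and 0 of 8 members passed, against 0.0333% of tested genes. The AZD2811 libraries lay below both control libraries for RRM1, RRM2, TK1, DUT and DCK, 5 of 8 members, against 17.4% of tested genes. In the AZD2811 library that is not rich in RMRP, TK1 stood at 40.69 and DUT at 49.94 scaled FPKM, close to the lower control libraries at 40.79 and 49.98. With a term for the kind of library the log2 fold change of RRM2 in pRB- cells was -0.26 and that of TYMS was 0.02. In pRB+ cells the log2 fold changes of AZD2811 against control lay between -0.08 and 0.01, with an adjusted p of 1.00 for each member (limma), against 0.00832% of genes called. For 0 of 8 members did the AZD2811 libraries lie below both controls, against 9.9% of tested genes. The difference between these effects, tested as an interaction, was 0.30 ± 0.13 for RRM2 (SE; limma, unadjusted p = 0.0608, adjusted p = 1.00), with 0 of 8 members called, against 0.0166% of tested genes. The comparison in pRB- cells and that of pRB+ with pRB- in control cells share the 2 pRB- control libraries, in which RRM2 was highest, so both rest on the same values.

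Ratios within a library need no scaling between libraries. The RRM2 to RRM1 ratio of FPKM was 2.30 and 2.08 in pRB+ AZD2811, 2.16 and 2.07 in pRB+ control, 2.02 and 2.02 in pRB- AZD2811, and 2.22 and 2.24 in pRB- control libraries. The pRB+ and pRB- values overlapped, and the difference of the mean log2 ratios was 0.02 (two-sided exact permutation test, p = 0.8286, with 0.0286 the smallest p of 70 splits). For AZD2811 against control that difference was -0.05 (two-sided exact permutation test, p = 0.429). By contrast, RRM2B, which p53 is known to induce and which replaces RRM2 outside S phase, had a log2 fold change of 0.05 ± 0.07 with pRB (SE; limma, adjusted p = 0.663). The ratio of RRM2 to RRM2B accordingly lay between 13.2 and 16.1 in pRB+ and between 18.1 and 24.1 in pRB- libraries, without overlap. TYMS over TK1, the new synthesis and salvage routes to thymidylate, lay between 2.60 and 2.89 in pRB+ and between 2.21 and 2.84 in pRB- libraries, which overlapped.

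**Figure D3:**
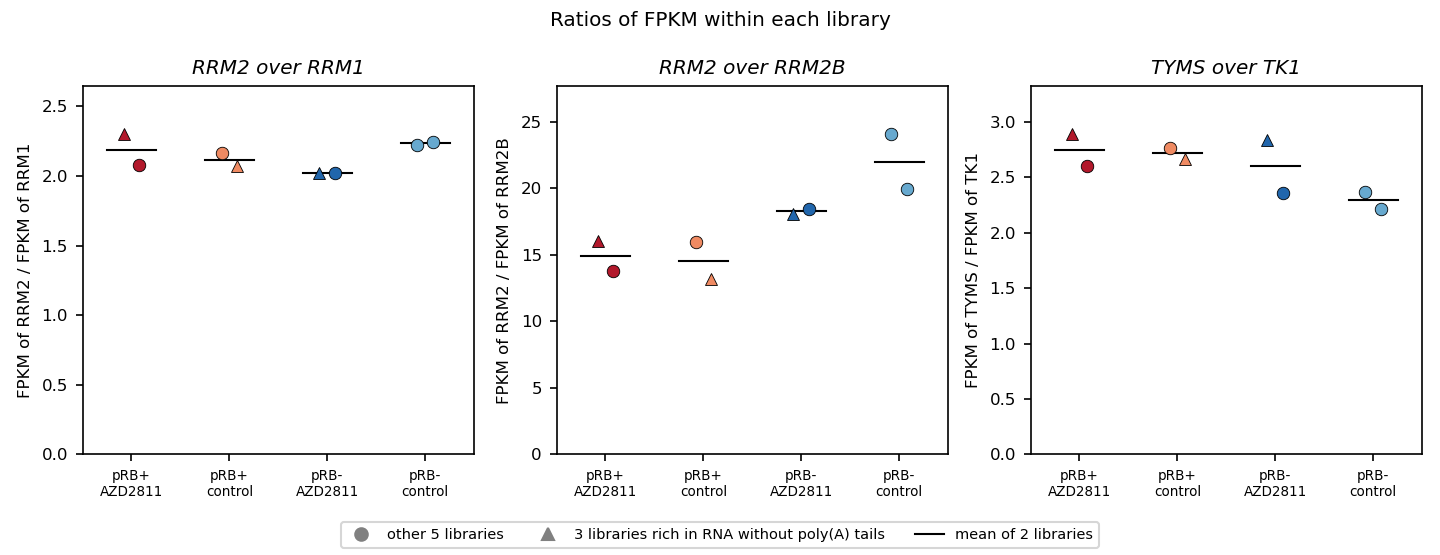
Ratios of FPKM within each library for RRM2 over RRM1, RRM2 over RRM2B and TYMS over TK1 (y axes from 0), by group from pRB+ AZD2811 to pRB- control, with triangles for the 3 libraries rich in RMRP and lines for the mean of 2 libraries. The RRM2 to RRM1 ratio stays between 2.02 and 2.30 in all 8 libraries, while RRM2 over RRM2B reaches 16.1 in pRB+ and is at least 18.1 in pRB- libraries.

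The enzymes around the members are given for the comparison of pRB+ with pRB-, in which 5.81% of all tested genes fell and 5.34% rose. Of 13 tested genes for the other deoxynucleotide kinases and RRM2B, 0 passed, and their median log2 fold change was 0.01. In the folate cycle, which supplies the methyl group to TYMS, 0 of 11 passed, with a median of -0.03. In new pyrimidine synthesis 1 of 5 rose, UMPS, the enzyme that forms UMP, at a log2 fold change of 0.39 ± 0.07 (SE; limma, adjusted p = 0.0266). In new purine synthesis 1 of 12 rose and 1 fell: PFAS, an early step of the pathway, at 0.42 ± 0.09, and GMPS, which makes GMP, at -0.26 ± 0.05 (SE; limma, adjusted p = 0.0366 and 0.0311). Of 14 genes of nucleotide breakdown and pool cleaning, the nucleotidase NT5C and adenosine deaminase ADA fell, by 0.29 and 0.27 on the log2 scale, and the nucleotidase NT5C2 rose by 0.30 (limma, adjusted p = 0.0428, 0.0346 and 0.0316). SAMHD1, which degrades deoxynucleotides, had a log2 fold change of 0.13 ± 0.08 (SE; limma, adjusted p = 0.271). Of 3 tested nucleoside transporters 0 passed.

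For the machinery that consumes deoxynucleotides the same shares of 5.81% and 5.34% apply, and no test compared these lists with the members. Of 24 origin licensing and firing genes 9 fell and 0 rose, with a median log2 fold change of -0.20, close to the median of the members. The loader CDT1 fell by 0.73 and the origin subunit ORC1 by 0.45 in log2 units (limma, adjusted p = 0.0238 for each). Of 27 replication fork genes 11 fell and 0 rose, with a median of -0.19. POLD3, a subunit of DNA polymerase delta, fell by 0.39 and the chromatin assembly subunit CHAF1B by 0.40 (limma, adjusted p = 0.0238 and 0.0266). Of 25 genes of mitosis 21 fell, with a median of -0.40. Their examples KIF2C, a microtubule depolymerase, and CCNA2, cyclin A2, fell by 0.72 and 0.50 (limma, adjusted p = 0.0238 for each). The last list holds 15 regulators, among them RB1 itself, E2F factors, checkpoint kinases and factors of protein turnover, and 3 of them rose and 4 fell. RB1, which the construct supplies, rose by 2.12 in log2 units (limma, adjusted p = 7.26e-05), E2F3 by 0.47 and E2F4 by 0.36 (limma, adjusted p = 0.0258 and 0.0266). E2F8 fell by 0.54, E2F2 by 0.46 and the kinase CHEK1 by 0.43 (limma, adjusted p = 0.0238, 0.0240 and 0.0238). RB1 kept its call with each library left out in turn. For the other genes named from these lists the calls share the dependence on single libraries given above for RRM1 and RRM2, since leaving out any 1 of those 5 libraries left 1 or 2 called genes in all.

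**Figure D4:**
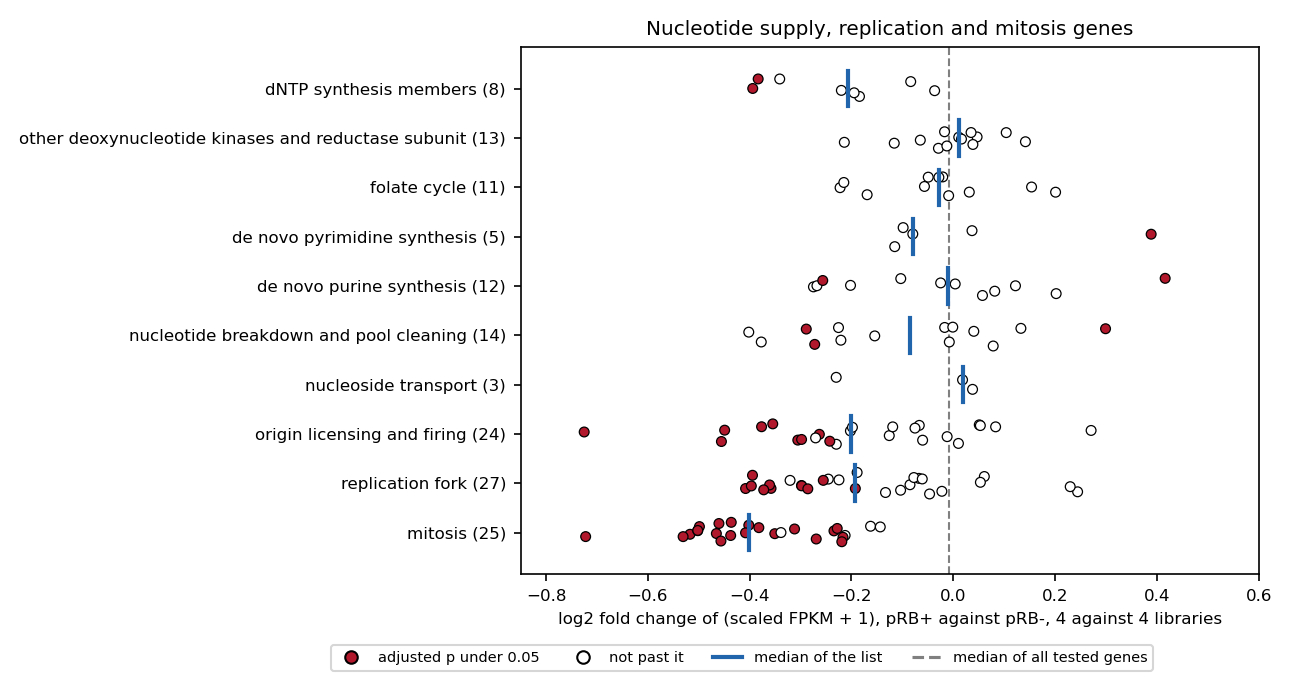
Log2 fold change of scaled FPKM plus 1 in pRB+ against pRB- (x axis) for each tested gene of the lists of nucleotide supply, replication and mitosis, with filled points for an adjusted p under 0.05, blue bars for the median of the list and a dashed line for the median of all tested genes. The members' median of -0.21 lies near those of origin licensing at -0.20 and the replication fork at -0.19, while the folate cycle lies at -0.03 and mitosis at -0.40.

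The genes whose profiles over the 8 libraries were nearest to each member, by root mean square difference of centred log2 values among 11719 candidates, were CRLF3 and NOS2 for RRM1 (0.0422 and 0.0471), CDCA5 and ETFA for RRM2 (0.0663 and 0.0676), and ZC3H10 and PPP2R4 for TYMS (0.0268 and 0.0272). They were DCXR for TK1 (0.0320), NDC80 and DERA for DUT (0.0295 and 0.0311), and DEK and PCBP2 for DCK (0.0247 and 0.0277). For DTYMK they were MRPL12 and COX4I1 (0.0289 and 0.0343), and for DCTD CLPP and TBL3 (0.0258 and 0.0277). No member was among the nearest of another, since members were not candidates. RRM2 was the member with the least close neighbours on this measure, which was not divided by how much a gene varies. It also varied most around its own mean (root mean square 0.230), while DCTD varied least (0.0896).

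Some values carry limits of counting. TYMS overlaps TYMSOS and ENOSF1 in RefSeq, RRM2 overlaps MIR4261, and DUT has the antisense gene DUT-AS1. Whether the counting used strand is not given in the sources used here, so reads of such partners cannot be told apart. ENOSF1 was listed at 0 or at most 0.0335 scaled FPKM in all 8 libraries, and TYMSOS at 0.450 to 1.89. RefSeq holds 2 pseudogenes named after TYMS, 3 after RRM2 and 8 after DUT, and none of them has a row in the table. Taking each transcript as 1500 bases, the estimated depth of 23300000 to 33700000 fragments per library gives the members a counting error of 1.25% to 7.01%, which covers counting only.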

How the data were processed

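RNA of 8 libraries of NCI-H82 cells (500 ng each, Illumina stranded total RNA protocol, per the labels' protocols) was deposited by the authors as FPKM for every gene. The submitters' processing notes name STAR 2.5.1b, Cufflinks 2.2.1 and hg19, without their roles. The annotation and the use of strand in counting are not given in the sources used here. The name of the deposited sheet speaks of counts, but it holds fractional FPKM. Of 25365 rows, 28 with gene names turned into dates were left out.

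Each library was scaled by the trimmed mean of its log ratios to a geometric mean library, after removal of the outer 30% of ratios and 5% of levels on either side. The factors ranged from 0.455 to 1.33. The 12013 genes averaging 1 scaled FPKM or more, 286 of them small RNA genes, were tested with limma 3.58.1 in R 4.3.3 on log2 of the value plus 1, with an intensity trend and Benjamini-Hochberg adjustment over all of them at a threshold of 0.05. Comparisons of 4 against 4 libraries used a model with additive terms for doxycycline and AZD2811. Comparisons within a background or treatment, and the interaction, came from a fit of 4 group means on all 8 libraries. The RRM2 to RRM1 ratio was tested by exact permutation. The members and the gene lists were chosen with earlier results of these data known, as was the additive fit. List genes were named where they passed the test in the comparison of pRB+ with pRB-, at most 6 per list by smallest p, and from these examples are given. RRM2B, TK2, DGUOK and SAMHD1 are named for their role beside a member. Nearest profiles were the 2 genes with the smallest difference per member. Some genes that meet these rules are not reported here.

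Depth is not given with the table. It was estimated from steps of 1 fragment in the low values of 1523 genes with transcripts over 1500 bases, less 200 bases. Libraries with RMRP above 1000 scaled FPKM were called rich in RNA without poly(A) tails. That division was made from the data and does not belong to the study's design. Alternatives were median-ratio scaling, no scaling, other filters (none, or a mean of at least 5), a pseudocount of 0.1, a replicate block, no small RNA genes, a library type term, robust spread, only the groups compared, only the 5 libraries low in RMRP, and each library left out. A pair of combined alternatives was added after seeing the data. The fits were also run on simulated data with independent errors, without the scaling step and without kinds of library. That run cannot speak to the effect of either on the calls. Figures used Python 3.11.15 and matplotlib 3.10.9.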

Additional observations from a re-analysis of the deposited data

Results flagged for a closer look

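TK1 in the 4 pRB- libraries had 1 value far from the rest: 31.39 scaled FPKM in pRB- AZD2811 replicate 1, against 40.7, 40.8 and 41.7 in the other 3. The gap to the nearest of them was 0.903 of the whole range, above Dixon's critical value at the 95% level. That library is 1 of the 3 rich in RMRP, at 14003 scaled FPKM. It was the only one found among 18 sets of 4 libraries looked at, and chance flags about 1 in 20 such sets. Without it the log2 fold change of TK1 in pRB+ against pRB- was -0.43 in place of -0.34 (limma, adjusted p = 0.0574 in place of 0.0564).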

How the results depend on the processing

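Across the alternatives the members kept the direction of pRB+ against pRB- over all libraries, except DCTD with 1 library left out. The number of called genes did not hold: beside 1340 it was 143 with FPKM as deposited, 744 with no filter, 4 from the fit of 4 group means, 2 in the 5 libraries low in RMRP, and 2346 with a library type term and without small RNA genes. RRM1 and RRM2 both had an adjusted p of 1.00 in the FPKM as deposited, and RRM2 one of 0.0523 with no filter (limma). Leaving out single libraries gave 1 to 1804 calls. The causes were not tested.

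For AZD2811 over all libraries there were 143 calls in place of 0 with FPKM as deposited, 2 from 4 group means and 7 in the 5 libraries. For pRB+ against pRB- in control cells there were 126 calls in place of 8 with FPKM as deposited and 1 with a minimum of 5, without small RNA genes, or without them and with a library type term; leaving out libraries gave 3 to 17. Under AZD2811 the count of 1 became 85 as deposited, 2 with a pseudocount of 0.1, and 0 with a minimum of 5 or only the groups compared, and 0 to 14 with libraries left out. AZD2811 in pRB- cells, with 4 calls, gave 143 as deposited, 2 with no filter, 1 with a minimum of 5 or only the groups compared, 0 in both fits without small RNA genes, and 1 to 15 with libraries left out. In pRB+ cells its 1 call became 80 as deposited, 0 in the other settings that moved it, and 0 to 12 with libraries left out. The interaction, with 2 calls, gave 108 as deposited, 1 with no filter, a minimum of 5, a pseudocount of 0.1 or a library type term, 5 with robust spread, 0 in both fits without small RNA genes, and 6 to 15 with libraries left out. Unscaled, the median log2 fold change of all tested genes moved to -0.34 for AZD2811, -0.33 for pRB+ in control cells, 0.26 for pRB+ under AZD2811, -0.64 for AZD2811 in pRB- cells and 0.60 for the interaction.

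With the replicate number as a block, pRB+ against pRB- gave 1631 calls, and DCK joined RRM1 and RRM2 at an adjusted p of 0.0399 (limma). The block gave 2 calls for AZD2811 in pRB- cells, 0 in pRB+ cells and 1 for the interaction. Deviations of same-numbered libraries from their group means had correlations across genes from -0.46 to 0.47. The RMRP-rich library was replicate 2 in pRB+ control and replicate 1 in both AZD2811 groups. These correlations therefore cannot show whether the numbers pair the samples. The main fits did not take the numbers as pairs.

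Signs that turned belong to values that passed no test. With a library type term TYMS turned to 0.0055 for AZD2811 in all libraries, to 0.024 in pRB- cells and to -0.035 in the interaction, and DTYMK to 0.019 in pRB- cells and -0.040 in the interaction. DTYMK stood at 0.064 for AZD2811 in the 5 libraries. As deposited, pRB+ under AZD2811 gave 0.098 for RRM2, 0.16 for TYMS, 0.068 for TK1, 0.22 for DUT, 0.14 for DCK and 0.28 for DTYMK, and DCTD was -0.032 for AZD2811 in pRB+ cells. The RRM2 to RRM1 ratio turned to -0.028 in the 5 libraries. With single libraries left out the log2 values ran as follows. DCTD ran from -0.083 to 0.023 for pRB+ in all libraries, -0.21 to 0.032 in control cells, -0.069 to 0.10 under AZD2811, -0.080 to 0.018 for AZD2811 in all libraries, -0.22 to 0.027 in pRB- cells, -0.044 to 0.069 in pRB+ cells and -0.015 to 0.23 in the interaction. DTYMK ran from -0.24 to 0.15 for pRB+ under AZD2811, -0.13 to 0.024 for AZD2811 in all libraries, -0.30 to 0.093 in pRB- cells, -0.13 to 0.086 in pRB+ cells and -0.12 to 0.28 in the interaction. TYMS ran from -0.058 to 0.013 for AZD2811 in all libraries, -0.094 to 0.034 in pRB- cells, -0.099 to 0.079 in pRB+ cells and -0.070 to 0.11 in the interaction. DUT ran from -0.28 to 0.075 for pRB+ under AZD2811 and -0.14 to 0.048 for AZD2811 in pRB+ cells. In pRB+ cells AZD2811 gave -0.15 to 0.030 for RRM1, -0.13 to 0.11 for RRM2 and -0.12 to 0.071 for TK1, whose interaction ran from -0.0046 to 0.36. The RRM2 to RRM1 ratio ran from -0.016 to 0.043. Where a group is left with 1 library, that library is assumed to vary like the other groups.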
